A study of Mus musculus with 12 samples.

Results

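The MAP kinase phosphatases of the Dusp family were described here in sorted intestinal stem cells (ISCs) after a single exposure to restraint stress or corticosterone. The family was taken as 9 genes by symbol, namely Dusp1, Dusp2, Dusp4, Dusp5, Dusp6, Dusp7, Dusp8, Dusp10 and Dusp16, out of 47729 genes in the count table, and all 9 were found by symbol and by identifier. The RNA came from cells with the brightest green fluorescence (Lgr5-EGFP-hi) of small intestinal crypts, sorted as live EpCAM+ CD24- cells that lacked the endothelial and blood markers CD31, CD45 and TER119. All mice carried the knock-in allele Lgr5-EGFP-IRES-CreERT2, which makes EGFP and a tamoxifen-dependent Cre from the Lgr5 locus, and no tamoxifen treatment is stated for these libraries. The 12 libraries fell into 4 groups of 3. Ctrl mice were left without food and water for the time of the restraint, stress mice were held in a tube for 3 h on 1 day, vehicle mice received an intraperitoneal injection of a 20% cyclodextrin solution, and CORT mice received corticosterone at 5 mg/kg in that solution. Mice of both sexes aged 8 to 10 weeks were used in the study, and the sex of the mice behind each library and the time from treatment to sorting are not given in the sources used here. The stress libraries are numbered 1+2, 3 and 4+5+6, and the joined numbers were read as pools of several mice. The questions were what restraint and what corticosterone changed in ISCs, and the vehicle and Ctrl groups were set beside each other in addition because 1 is the control of the other treatment.

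MAP kinases (ERK, JNK and p38) are switched on when an upstream kinase phosphorylates a threonine and a tyrosine in their activation loop, and dual-specificity MAP kinase phosphatases switch them off by removing both phosphates. Dusp1, Dusp2, Dusp4 and Dusp5 encode nuclear enzymes whose genes are rapidly induced by growth factor and stress signals. Dusp6 and Dusp7 encode cytoplasmic enzymes that prefer ERK, and Dusp8, Dusp10 and Dusp16 encode enzymes that prefer JNK and p38. Several members are transcribed in response to the kinases they restrain, which makes them feedback inhibitors, and Dusp1 is also a classical glucocorticoid-induced gene. In the crypt, ERK signalling downstream of the EGF receptor drives the proliferation of ISCs.

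The promoters of the members the results turn on are shown first. The pattern of Dusp1 followed that of some immediate early genes, and Dusp5 and Dusp7 were both lower after corticosterone. The sequences are from RefSeq (GRCm38.p6, the mm10 assembly), run 5′ to 3′ on the strand of the gene and hold 250 bases before and 50 bases after the annotated start, and such a window was found for 8 of the 9 members, all but Dusp4. In the lines that follow, capitals mark a full cAMP response element (CRE, TGACGTCA, the site of the CREB and ATF factors) or a CArG box (the site of serum response factor), and Dusp8 is shown because it held the CRE too.
Dusp1 (chr17:26508423-26508722, minus strand): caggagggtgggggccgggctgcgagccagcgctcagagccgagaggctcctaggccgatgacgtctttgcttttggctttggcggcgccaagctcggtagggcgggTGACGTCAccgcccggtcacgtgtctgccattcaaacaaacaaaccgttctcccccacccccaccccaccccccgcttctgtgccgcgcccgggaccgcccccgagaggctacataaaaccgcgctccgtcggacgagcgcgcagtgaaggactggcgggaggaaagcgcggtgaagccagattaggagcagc
Dusp8 (chr7:142095235-142095534, minus strand): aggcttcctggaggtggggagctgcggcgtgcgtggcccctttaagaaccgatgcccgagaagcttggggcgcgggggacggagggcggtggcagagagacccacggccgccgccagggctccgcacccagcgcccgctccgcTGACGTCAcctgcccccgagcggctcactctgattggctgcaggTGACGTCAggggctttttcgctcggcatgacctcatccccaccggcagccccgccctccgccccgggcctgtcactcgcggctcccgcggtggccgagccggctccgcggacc
Dusp5 (chr19:53528895-53529194, plus strand): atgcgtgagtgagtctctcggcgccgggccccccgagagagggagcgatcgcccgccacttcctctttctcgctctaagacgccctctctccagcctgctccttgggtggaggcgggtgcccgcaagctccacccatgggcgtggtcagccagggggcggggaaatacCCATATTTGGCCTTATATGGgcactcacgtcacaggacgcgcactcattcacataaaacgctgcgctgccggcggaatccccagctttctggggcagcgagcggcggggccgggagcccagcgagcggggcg
Dusp7 (chr9:106368382-106368681, plus strand): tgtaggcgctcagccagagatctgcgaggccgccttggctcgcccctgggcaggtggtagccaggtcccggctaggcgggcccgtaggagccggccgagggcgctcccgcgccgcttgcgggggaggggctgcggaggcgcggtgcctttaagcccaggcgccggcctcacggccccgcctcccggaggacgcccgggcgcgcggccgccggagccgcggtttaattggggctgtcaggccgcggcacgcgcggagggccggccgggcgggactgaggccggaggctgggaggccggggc

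The full CRE stood in 2 of the 8 member promoters, against 1.79% of 32851 promoter windows. It began at -143 from the start in Dusp1, and at -107 and -63 in Dusp8. The Dusp8 window lies inside the gene span that goes with the counts (chr7:142079490-142095843). Its CREs are thus upstream of the RefSeq start but within that span. The CArG box stood in 1 of the 8, Dusp5, where 2 adjacent boxes began at -82 and -72, against 1.63% of all windows. The core of the CRE (TGACG, contained in the full CRE) stood in 5 of 8 against 20.8% of all windows, and the GC box (GGGCGG, the site of Sp factors) in 7 of 8 against 35.7%. The windows were rich in G and C, with 67% in Dusp1, 66.7% in Dusp5, 78.7% in Dusp7 and 73.3% in Dusp8, against a median of 52.7% over all windows. None of these 8 windows held the glucocorticoid receptor core hexamer (AGAACA, 19% of all windows), the AP-1 site (TGANTCA, 7.81%) or the ETS core (CCGGAA, 14.9%). All motifs were searched on both strands, and a match or its absence describes these letters only.

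Libraries held between 15934907 and 69533214 counts, 15934907 to 17135770 in Ctrl and stress, 16465961 to 31280267 in vehicle and 29426183 to 69533214 in CORT, where the deepest vehicle library (library 6) passed the shallowest CORT library (library 5). A count stands for about 75 covered bases, and a read pair for up to 4 counts. A count of 0 allows up to 3 read pairs, or 12 counts (0.179 to 0.746 CPM, counts scaled to library size), by counting error alone. All 6 ISC markers were present in all 12 libraries (Lgr5 127.85 to 247.40 CPM, Olfm4 6880 to 10343 CPM), and the summed markers of blood cells lay at 2.06 to 7.04 CPM and those of stromal and endothelial cells at 0.609 to 4.10 CPM. Of the 6 ISC markers 1, Ascl2, was lower after stress, where 0.590% of all genes were called lower. After CORT 3 of 6, Ascl2, Lgr5 and Smoc2, were lower, against 4.50% of all genes. The glucocorticoid targets rose in 10 of 14 tested after stress, where 1.30% of all genes were called higher. They rose in 12 of 14 after CORT, against 3.64% of all genes. They were led by Angptl4, Sgk1, Ddit4, Pdk4, Fkbp5 and Tsc22d3 after stress. After CORT they were led by Fkbp5, Tsc22d3, Klf9, Pdk4, Angptl4 and Sgk1. The log2 fold changes after stress and CORT were 1.72 and 2.42 for Fkbp5 and 1.54 and 2.27 for Tsc22d3. Since bulk RNA was measured, fewer cells of a type and less RNA per cell cannot be told apart.

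After corticosterone, the RNA of 3 of 8 tested MAP kinase phosphatases, Dusp4, Dusp5 and Dusp7, was lower than after vehicle. Over all genes, 4.50% were called lower after CORT. Restraint stress gave 0 of 8 tested members past the threshold, with Dusp7 and Dusp6 nearest to it. Only 1.89% of all genes were called after stress, in either direction. The largest difference in the family lay between the control groups, where Dusp1 was 12.1-fold lower in vehicle than in Ctrl. Vehicle libraries 3 and 5 held only 10 and 4 counts of Dusp1, under the 12 that a 0 allows. The threshold was an adjusted p of 0.05 (edgeR quasi-likelihood test, Benjamini-Hochberg adjustment over all genes tested), and 8 of the 9 members had enough counts to be tested in each comparison, Dusp2 being the exception.

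On the FPKM scale, which divides fragments by transcript length and library size and so allows genes to be compared, Dusp16 was the most abundant member. Its mean level over the 12 libraries was 12.5 ± 2.02 FPKM (SD, n = 12), at the 76.2 percentile of 23260 genes with any count. Dusp4 (3.95 FPKM), Dusp7 (3.56 FPKM) and Dusp1 (3.48 FPKM) followed, with overlapping ranges of 1.44 to 6.17, 1.58 to 6.49 and 0.0882 to 9.63 FPKM. Dusp5 (1.59 FPKM) and Dusp6 (1.44 FPKM) also overlapped, over 0.687 to 2.67 and 0.493 to 2.85 FPKM. Dusp8 (0.717 FPKM), Dusp10 (0.380 FPKM) and Dusp2 (0.0783 FPKM) stood lowest. Dusp1 varied most among the members without a 0, with its highest library 109-fold above its lowest. That lowest library, vehicle library 5, held 4 counts, under the 12 that a 0 allows, so the ratio is uncertain. Dusp16 varied least (1.74-fold). The summed FPKM of the 9 members was 32.6 ± 3.63 in Ctrl and 32.5 ± 5.18 in stress, and it was 27.1 ± 0.153 in vehicle next to 18.8 ± 0.387 in CORT (SD, n = 3 each). All CORT libraries (18.4 to 19.1) lay below all vehicle libraries (26.9 to 27.2), whereas the stress libraries (27.5 to 37.9) overlapped those of Ctrl (28.6 to 35.8). The share of this sum that was Dusp16 ranged from 36% to 54.8% and was highest in the CORT libraries (50.7% to 54.8%), next to 36% to 50.6% in the other groups.

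**Figure D1:**
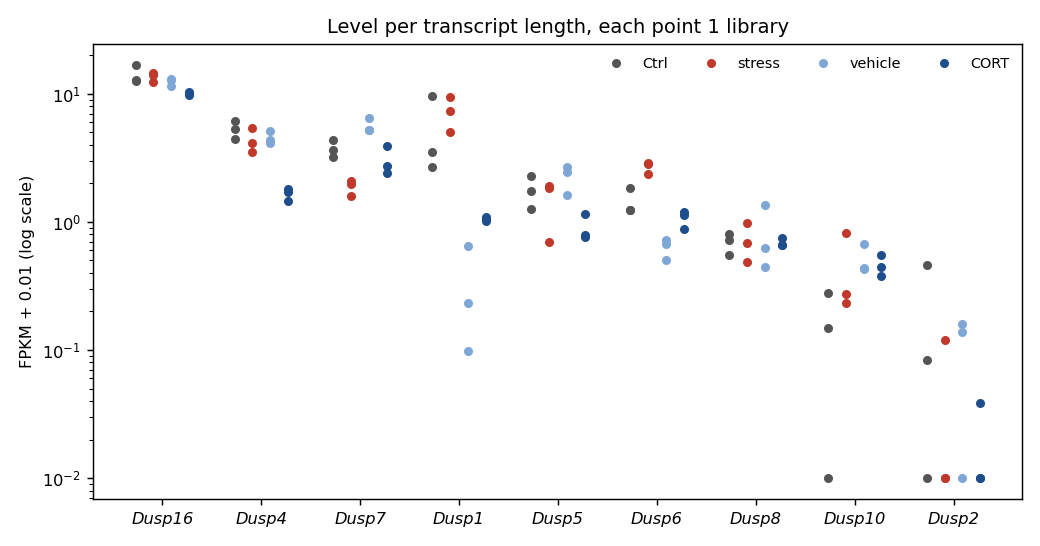
Level per transcript length (FPKM plus 0.01, log scale) of the 9 members, each point 1 library, coloured by group and ordered by the mean over 12 libraries. Dusp16 sits above all other members in every library, and the 3 vehicle points of Dusp1 (0.0882 to 0.633 FPKM) sit far below its Ctrl and stress points (2.65 to 9.63 FPKM).

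Dusp1 (ENSMUSG00000024190, mm10 chr17:26505590-26508519, minus strand) encodes the nuclear phosphatase that acts on p38, JNK and ERK. Its level was 6.84, 6.93 and 18.9 CPM in Ctrl libraries 1, 2 and 3, and 21.6, 16.7 and 9.98 CPM in stress libraries 1+2, 3 and 4+5+6. It was 0.594, 0.233 and 1.65 CPM in vehicle libraries 3, 5 and 6 and 2.36, 2.52 and 2.44 CPM in CORT libraries 2, 4 and 5. All 6 libraries of injected mice thus lay below all 6 libraries of mice that were not injected, and vehicle libraries 3 and 5 held only 10 and 4 counts, under the 12 counts that a 0 allows. Against Ctrl, Dusp1 was lower in vehicle by a log2 fold change of -3.60 (SE 0.59, adjusted p = 0.0196). It was 1 of 8 tested members called lower, where 0.352% of 13642 genes were called lower, and with the 2-fold criterion added it was again 1 of 8, against 0.132%. The call was lost in 5 of 14 other settings, among them without Ctrl library 1 (adjusted p = 0.0719) and without Ctrl library 3 (-2.96, adjusted p = 0.0850), and without vehicle library 6 the log2 fold change grew to -4.69 (adjusted p = 0.0288). CORT libraries lay above vehicle libraries without overlap, and the log2 fold change of 1.49 (SE 0.57, adjusted p = 0.155) passed the threshold only without vehicle library 6 (2.55, adjusted p = 0.0303). The log2 fold change after stress was 0.56 (SE 0.41, adjusted p = 0.586), with overlapping groups, and it ran from 0.29 without stress library 1+2 to 1.23 without Ctrl library 3.

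Dusp1 shared its pattern with some immediate early genes, a class of genes transcribed within minutes of a stimulus. Among 14415 genes, the 3 with the highest Pearson correlation to Dusp1 across the 12 libraries (log2 of CPM plus 1) were Fos (r = 0.975), Jun (r = 0.948) and Fosb (r = 0.938), and for Egr1 r was 0.888. For Ier3, also an immediate early gene, r was 0.477. Spearman's rho was 0.958 for Fos and 0.881 for both Jun and Fosb. Within the 6 Ctrl and stress libraries r was 0.950 for Fos, 0.781 for Jun and 0.956 for Fosb, and within the 6 vehicle and CORT libraries it was 0.822, 0.673 and 0.0826. These correlations are a description of libraries that share their groups, and no test was made of them. In Ctrl libraries 1, 2 and 3 Fos stood at 51.0, 56.1 and 100.8 CPM, and library 3 was the highest for Dusp1 as well. In stress libraries 1+2, 3 and 4+5+6 Fos stood at 156.0, 96.0 and 79.8 CPM, again in the order of Dusp1. In vehicle libraries 3, 5 and 6 Fos was at 8.14, 4.25 and 10.4 CPM, and in CORT libraries 2, 4 and 5 at 12.7, 14.9 and 7.98 CPM.

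**Figure D2:**
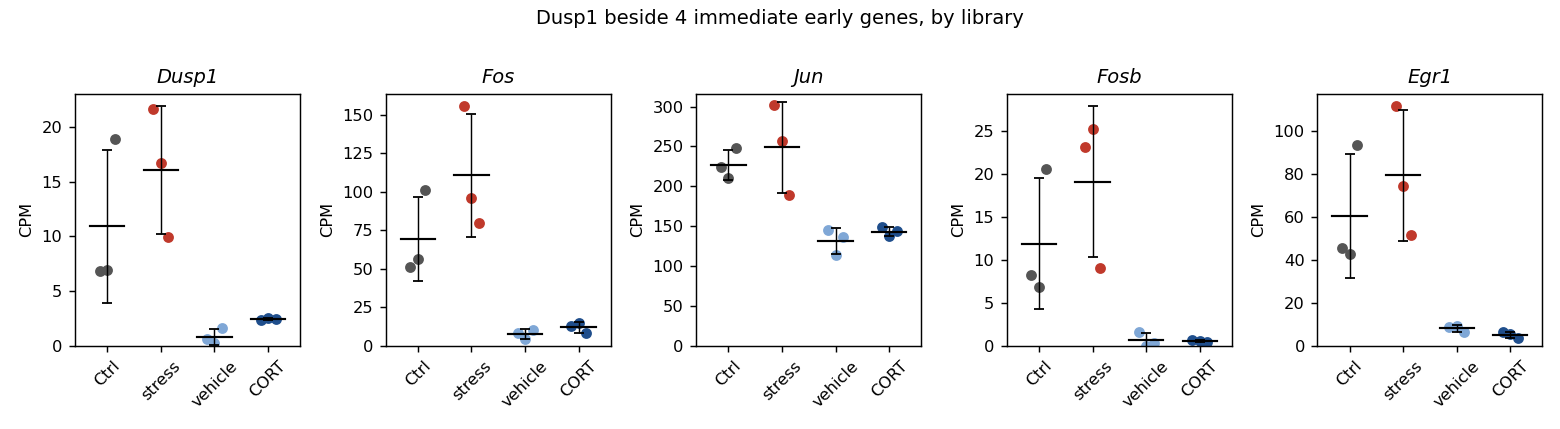
Levels (CPM) of Dusp1 and of the immediate early genes Fos, Jun, Fosb and Egr1 in each library (points), with the group mean (line) and SD (bars), n = 3. In all 5 panels the vehicle and CORT libraries lie below the Ctrl and stress libraries, and Ctrl library 3 and stress library 1+2 are high for Dusp1, Fos and Egr1.

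Between vehicle and Ctrl, 5 of 13 immediate early genes tested were lower, where 0.352% of all genes were called lower, and 0 were higher, where 0.447% were called higher. These were Fos (log2 fold change -3.16, adjusted p = 0.00155), Egr1 (-2.91, adjusted p = 0.00155), Fosb (-4.32, adjusted p = 0.0297), Jun (-0.78, adjusted p = 0.00661) and Zfp36 (-0.77, adjusted p = 0.0118), which encodes a protein that destabilizes short-lived mRNAs. The median over the list was -0.86, next to 0.00 over all genes tested. After stress, Btg2 (0.82) and Klf6 (0.66) rose, and Fos (0.68, adjusted p = 0.291) and Egr1 (0.39, adjusted p = 0.643) did not pass. After CORT, Btg2 (1.56) and Klf6 (0.68) rose, Junb fell (-0.81), and the values of Fos (0.64, adjusted p = 0.284) and Egr1 (-0.64, adjusted p = 0.170) stood on opposite sides of 0. Single markers of other cells differed between vehicle and Ctrl as well, and their part in the values of Dusp1 was not tested. Of 6 Paneth markers 1 was higher in vehicle, Mmp7 by 2.04 on the log2 scale, with a list median of -0.18 and a sum of 175.0 to 202.8 CPM in vehicle and 117.5 to 152.3 CPM in Ctrl. Of 6 enterocyte markers 1 was higher, Fabp1 by 1.92, with a list median of -0.52 and overlapping sums of 136.8 to 189.8 CPM in vehicle and 178.9 to 201.7 CPM in Ctrl. Of 14 glucocorticoid targets 4 were higher in vehicle (Fkbp5 by 1.42 on the log2 scale, Pdk4, Angptl4 and Hif3a) and 1 was lower (Sgk1, log2 fold change -1.25). Vehicle and Ctrl mice differed in the injection and in food and water deprivation, and the labels give no batch, so these cannot be told apart.

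Dusp2 (ENSMUSG00000027368, chr2:127336159-127338376, plus strand), which encodes a nuclear phosphatase best known from activated lymphocytes, held 32 counts over all 12 libraries, was at 0 in 6 of them and reached at most 13 counts (0.792 CPM, Ctrl library 3). All libraries but that one were at or under the 12 counts that a 0 allows, so a change was not detectable at this depth.

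Dusp4 (ENSMUSG00000031530, chr8:34807297-34819894, plus strand) encodes a nuclear phosphatase of ERK and JNK that is itself induced by ERK signalling. It gave the firmest change in the family. Its level was 13.1, 15.0 and 12.5 CPM in vehicle libraries 3, 5 and 6 and 5.53, 5.51 and 4.64 CPM in CORT libraries 2, 4 and 5, so that the groups were far apart. The log2 fold change was -1.37 (SE 0.17, 2.58-fold lower, adjusted p = 0.00176), and it lay between -1.42 and -1.05 with an adjusted p of at most 0.0256 under all 15 other ways of processing and leaving out libraries. In Ctrl libraries 1, 2 and 3 it was 18.9, 16.4 and 13.3 CPM, and in stress libraries 1+2, 3 and 4+5+6 it was 16.7, 12.9 and 10.5 CPM. Ctrl and stress overlapped, and the log2 fold change after stress was -0.28 (SE 0.21, adjusted p = 0.615). Whether the responses to stress and to CORT differed was tested itself, as stress minus Ctrl less CORT minus vehicle over the 12 libraries. That difference was 1.09 for Dusp4 (SE 0.27, adjusted p = 0.0981), short of the threshold, and it passed with DESeq2 (1.09, adjusted p = 0.0141). The genes most like Dusp4 over the 12 libraries were Krt23 (r = 0.947), Fermt1 (r = 0.939) and Dapk2 (r = 0.934), and r with Fkbp5 was -0.914. Within the 6 Ctrl and stress libraries r was 0.627 for Krt23, 0.815 for Fermt1 and 0.824 for Dapk2. Within the 6 vehicle and CORT libraries it was 0.959, 0.957 and 0.949. The libraries share their groups, and no test was made of these correlations.

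Dusp5 (ENSMUSG00000034765, chr19:53529109-53542431, plus strand) encodes the nuclear phosphatase that is specific for ERK, and its promoter with the adjacent CArG boxes is printed above. Its level was 4.40, 7.15 and 6.77 CPM in vehicle libraries 3, 5 and 6 and 2.15, 3.38 and 2.201 CPM in CORT libraries 2, 4 and 5. The groups did not overlap, and the log2 fold change was -1.24 (SE 0.29, 2.37-fold lower, adjusted p = 0.0307). It lay between -1.49 and -0.77 under the other settings, and the call was lost in 6 of 15, among them without vehicle library 5 (adjusted p = 0.0960), without vehicle library 6 (adjusted p = 0.0887), without CORT library 2 (adjusted p = 0.0955) and without CORT library 5 (adjusted p = 0.103). In Ctrl libraries 1, 2 and 3 it was 4.79, 3.53 and 6.15 CPM, and in stress libraries 1+2, 3 and 4+5+6 it was 5.10, 2.00 and 5.13 CPM, with overlap and a log2 fold change of -0.24 (SE 0.41, adjusted p = 0.846). An antisense gene overlaps Dusp5, and with a kit that does not mark strand its reads cannot be told from those of Dusp5. The genes most like it were Ell (r = 0.938), Hip1r (r = 0.936) and Crim1 (r = 0.918).

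Dusp6 (ENSMUSG00000019960, chr10:99263231-99267488, plus strand) encodes the cytoplasmic phosphatase of ERK that is widely used as a readout of ERK activity. It was 3.86, 5.74 and 3.78 CPM in Ctrl libraries 1, 2 and 3 and 8.95, 9.15 and 7.09 CPM in stress libraries 1+2, 3 and 4+5+6. It was 2.26, 1.51 and 2.07 CPM in vehicle libraries 3, 5 and 6 and 3.72, 2.93 and 3.68 CPM in CORT libraries 2, 4 and 5. Each treated group lay above its own control without overlap. The log2 fold change was 0.91 after stress (SE 0.27, adjusted p = 0.139) and 0.81 after CORT (SE 0.29, adjusted p = 0.127), and neither passed the threshold. Vehicle lay below Ctrl without overlap, at a log2 fold change of -1.19 (SE 0.35, adjusted p = 0.188). Dusp6 and Dusp1 went together across the 12 libraries (r = 0.864), and the genes most like Dusp6 were Zfyve1 (r = 0.945), Myo7b (r = 0.918) and Gm15500 (r = 0.912).

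Dusp7 (ENSMUSG00000053716, chr9:106368632-106375724, plus strand) encodes the second cytoplasmic phosphatase that prefers ERK. It was lower in both treated groups. In Ctrl libraries 1, 2 and 3 it was 13.1, 11.6 and 15.3 CPM, and in stress libraries 1+2, 3 and 4+5+6 it was 7.15, 7.64 and 5.54 CPM. In vehicle libraries 3, 5 and 6 it was 18.4, 17.9 and 23.1 CPM, and in CORT libraries 2, 4 and 5 it was 9.74, 9.0 and 14.6 CPM. Neither treated group overlapped its control. The log2 fold change after CORT was -0.84 (SE 0.21, 1.79-fold lower, adjusted p = 0.0384), and the call was lost in 7 of 15 other settings, including the removal of any library but CORT library 5 (adjusted p between 0.0609 and 0.150) and counts thinned to the smallest library (adjusted p = 0.0506). The log2 fold change after stress was of similar size, -0.98 (SE 0.22, adjusted p = 0.0546), just outside the threshold, and it passed with DESeq2 (adjusted p = 0.0109), with all 12 libraries in 1 fit (adjusted p = 0.0246) and without stress library 3 (adjusted p = 0.0288). The difference between the 2 responses was -0.14 (SE 0.29, adjusted p = 0.899). Vehicle lay above Ctrl without overlap, by 0.57 on the log2 scale (SE 0.17, adjusted p = 0.190). Over the 12 libraries Dusp7 ran opposite to Dusp6 (r = -0.824). The genes most like it were Tmem251 (r = 0.956), Nop58 (r = 0.949) and Idh3a (r = 0.947).

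**Figure D3:**
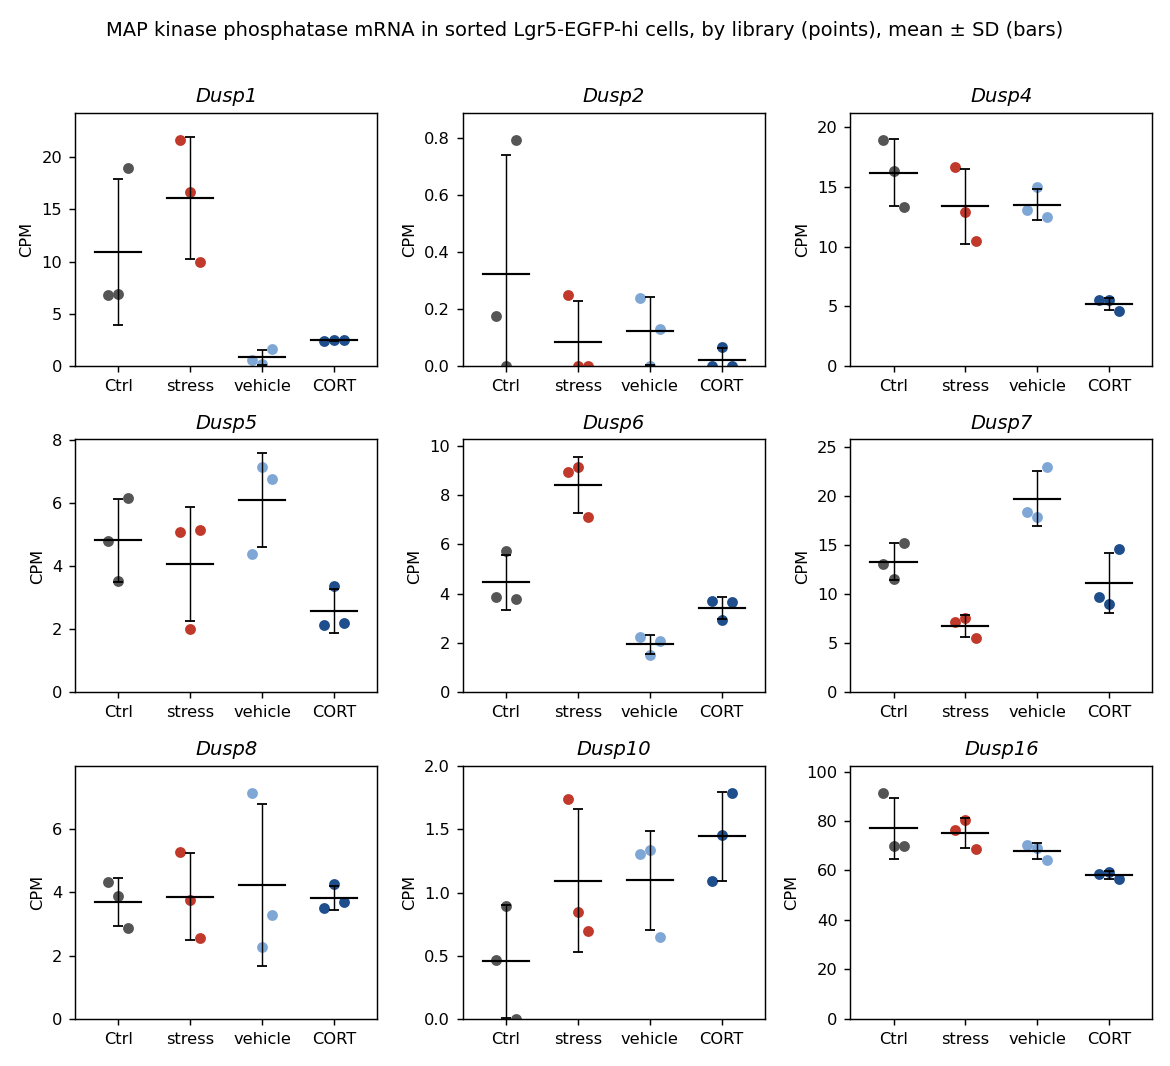
Levels (CPM) of the 9 members in each library (points) with the group mean (line) and SD (bars), n = 3 per group, each panel with its own axis from 0. The 3 CORT points of Dusp4 (4.64 to 5.53 CPM) lie apart from all others, Dusp6 is highest and Dusp7 lowest in the stress group, and the CORT points of Dusp16 (56.4 to 59.4 CPM) lie just below its other points (64.3 to 91.3 CPM).

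Dusp8 (ENSMUSG00000037887, chr7:142079490-142095843, minus strand) encodes a phosphatase of JNK and p38 and showed no call. Its level was 2.86 to 4.32 CPM in Ctrl (median 3.89) and 2.54 to 5.28 CPM in stress (median 3.76). Vehicle libraries held 2.27 to 7.13 CPM (median 3.27) and CORT libraries 3.51 to 4.25 CPM (median 3.68), and all groups overlapped. The log2 fold changes were 0.06 (SE 0.37) after stress, -0.14 (SE 0.39) after CORT and 0.19 (SE 0.42) in vehicle against Ctrl, and the sign of each turned when 1 library was left out. Its RefSeq promoter window, which lies inside the span given here, held the CRE as that of Dusp1 did. The r between Dusp8 and Dusp1 was -0.023 over the 12 libraries. The part of the CRE in the level of either gene was not tested. The genes most like Dusp8 were 6330549D23Rik (r = 0.898), Snord34 (r = 0.870) and Slc35b4 (r = 0.854).

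Dusp10 (ENSMUSG00000039384, chr1:184013302-184075636, plus strand) encodes a phosphatase of p38 and JNK. Its level was 0.468, 0.897 and 0 CPM in Ctrl libraries 1, 2 and 3 and 1.74, 0.849 and 0.692 CPM in stress libraries 1+2, 3 and 4+5+6. It was 1.31, 1.34 and 0.647 CPM in vehicle libraries 3, 5 and 6 and 1.09, 1.45 and 1.79 CPM in CORT libraries 2, 4 and 5. Counts ran from 0 to 86, and the groups overlapped in all 3 comparisons. The log2 fold changes of 1.25 (SE 0.92, adjusted p = 0.593) after stress and 0.41 (SE 0.45, adjusted p = 0.647) after CORT did not pass the threshold, and that after stress was 2.18 without Ctrl library 2 and 0.68 without Ctrl library 3. The gene 1700056E22Rik overlaps Dusp10 on the other strand and held 76 counts over the 12 libraries, next to 353 for Dusp10. The genes most like Dusp10 were Slc22a21 (r = 0.888), Tmem167b (r = 0.875) and B130034C11Rik (r = 0.860).

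Dusp16 (ENSMUSG00000030203, chr6:134715468-134792625, minus strand) encodes a phosphatase of JNK and p38. It was 91.3, 69.8 and 69.9 CPM in Ctrl libraries 1, 2 and 3, 76.3, 80.5 and 68.6 CPM in stress libraries 1+2, 3 and 4+5+6, 70.3, 68.9 and 64.3 CPM in vehicle libraries 3, 5 and 6 and 58.6, 59.4 and 56.4 CPM in CORT libraries 2, 4 and 5. The CORT libraries were the lowest 3 of the 12. The log2 fold change after CORT was -0.22 (SE 0.07, adjusted p = 0.0989), which lay between -0.30 and -0.20 under the 15 other settings and passed in none of them. After stress it was -0.04 (SE 0.12, adjusted p = 0.928). Dusp16 went with Dusp4 over the 12 libraries (r = 0.843), and the genes most like it were Inpp5j (r = 0.913), Arrdc4 (r = 0.906) and Pddc1 (r = 0.905).

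Read against all genes, the counts of members were as follows. After CORT, 3 of 8 tested members fell, where 4.50% of 14656 genes were called lower, and 0 rose, where 3.64% were called higher. With the 2-fold criterion added, 2 of 8 (Dusp4 and Dusp5) were lower, against 0.737% of genes. The groups did not overlap in 6 of 8 members, against 28.7% of genes, and the median log2 fold change of the 8 was -0.18 next to 0.01 over all genes. After stress, 0 of 8 were called by edgeR, where 1.30% of 13722 genes were called higher and 0.590% lower, while 2 of 8 had an unadjusted p below 0.05 and DESeq2 called 1, Dusp7. The groups did not overlap in 2 of 8, against 20.4% of genes, and the median was 0.01 next to 0.00 over all genes. In vehicle against Ctrl the groups did not overlap in 3 of 8 (Dusp1, Dusp6 and Dusp7), against 16.3% of genes. The difference between the responses to stress and CORT passed for 0 of 8 with edgeR, against 0.388% of 14415 genes, with 1 of 8 at an unadjusted p below 0.05 (Dusp4), which DESeq2 called. Vehicle libraries enter the comparison with CORT and that with Ctrl, and Ctrl libraries that with stress and that with vehicle, so the values of these comparisons are not independent.

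**Figure D4:**
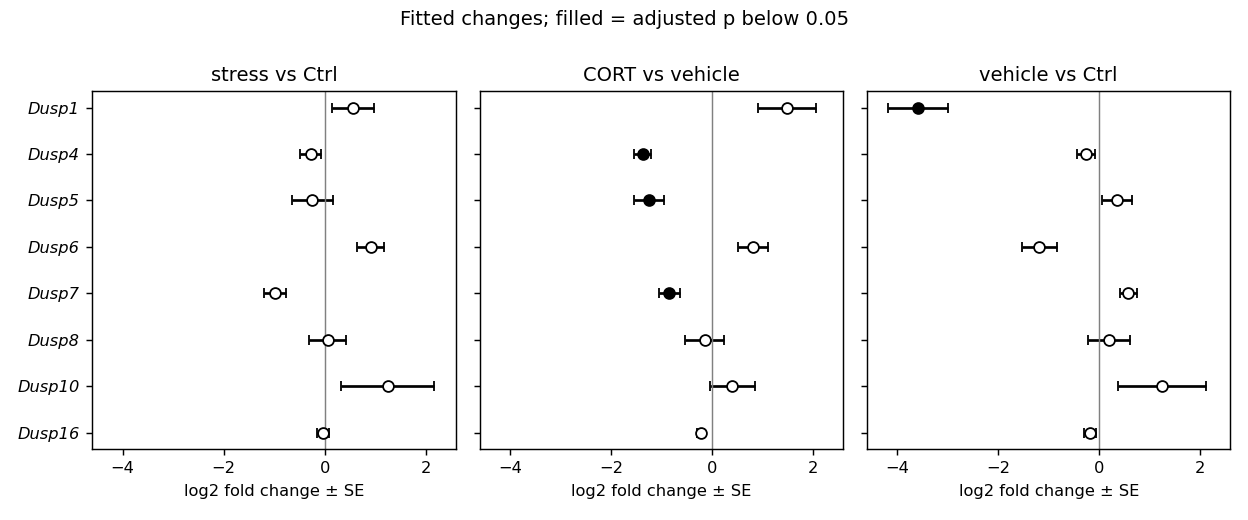
Log2 fold change (point) and SE (bar) of the 8 tested members in each comparison from the edgeR fits, with filled points at an adjusted p below 0.05. Filled points are Dusp4, Dusp5 and Dusp7 after CORT, all below 0, and Dusp1 in vehicle against Ctrl.

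Enterocyte markers, some goblet markers and 1 of 6 Paneth markers were higher in the stress libraries, where 1.30% of all genes were called higher. For enteroendocrine cells 0 of 6 markers passed and for tuft cells 0 of 2 tested (medians -0.24 and -0.48). The summed enterocyte markers were 178.9 to 201.7 CPM in Ctrl and 829.0, 322.2 and 1684.1 CPM in stress libraries 1+2, 3 and 4+5+6, with 5 of 6 markers called higher and none at 0, and the summed goblet markers were 939.2, 504.3 and 1457 CPM in those libraries against 490.5 to 613.3 CPM in Ctrl, with 2 of 6 called higher. The summed Paneth markers were 234.9, 150.4 and 228.5 CPM in those stress libraries against 117.5 to 152.3 CPM in Ctrl, with a list median of 0.57. Stress library 4+5+6 had the highest enterocyte and goblet sums. Without it, the log2 fold change of Dusp6 was 1.02 (adjusted p = 0.188) and that of Dusp7 was -0.85 (adjusted p = 0.150). The part of these markers in the stress values was not tested. In the comparison of CORT with vehicle, the summed enterocyte markers overlapped (125.0 to 191.3 and 136.8 to 189.8 CPM). Of 6 enterocyte markers 1 was called higher, Fabp2 (0.46 on the log2 scale), against 3.64% of all genes. The summed Paneth markers were 93.8 to 108.9 CPM in CORT and 175.0 to 202.8 CPM in vehicle. Of 6 Paneth markers 4 were called lower, against 4.50% of all genes, and none was at 0. Of 6 ISC markers 3 were called lower as well (Ascl2, Lgr5 and Smoc2), with a list median of -0.22. The part of these markers in the values of Dusp4, Dusp5 and Dusp7 was not tested. CORT libraries 2 and 4 were also deeper than all vehicle libraries, and after thinning of the counts to the smallest library the log2 fold change was -1.42 for Dusp4 (adjusted p = 0.00158), -1.38 for Dusp5 (adjusted p = 0.0234) and -0.83 for Dusp7 (adjusted p = 0.0506).

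The kinases that these phosphatases act on, and the cascades above them, were measured in the same libraries. Of 15 tested genes of the ERK cascade, 0 passed after stress, where 1.89% of all genes were called in either direction. The median of the list was -0.06 after stress and -0.12 after CORT. Its summed level was 1456 to 1487 CPM in stress and 1543 to 1581 CPM in Ctrl, and 1415 to 1493 CPM in CORT and 1515 to 1570.4 CPM in vehicle. Of 14 tested kinases of the JNK, p38 and ERK5 routes, 0 passed in either comparison, with medians of -0.06 and -0.01. Over all genes, 1.89% were called after stress and 8.13% after CORT, in either direction. The sum of these kinases was 942 to 1003 CPM in stress and 1006 to 1052 CPM in Ctrl. It was 983 to 1015 CPM in CORT and 1025 to 1032 CPM in vehicle. In both lists all stress libraries lay below all Ctrl libraries and all CORT libraries below all vehicle libraries.

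Other genes that ERK induces, and other feedback inhibitors of its receptors, split in direction. Of 14 tested, 1 rose and 1 fell after stress, where 1.30% of all genes were called higher and 0.590% lower. After CORT 1 rose and 3 fell, where 3.64% of all genes were called higher and 4.50% lower. Between vehicle and Ctrl 0 of 14 were called, where 0.447% of all genes were called higher and 0.352% lower. Errfi1, which encodes an inhibitor of the EGF receptor kinase, rose in both, by 1.16 on the log2 scale after stress (SE 0.17, adjusted p = 0.0115) and by 1.33 after CORT (SE 0.22, adjusted p = 0.00645). In Ctrl libraries 1, 2 and 3 it was 26.8, 22.2 and 17.0 CPM and in stress libraries 1+2, 3 and 4+5+6 it was 56.9, 43.6 and 46.5 CPM. In vehicle libraries 3, 5 and 6 it was 15.8, 15.6 and 17.3 CPM and in CORT libraries 2, 4 and 5 it was 53.3, 42.0 and 27.0 CPM. Phlda1 fell in both, by log2 fold changes of -0.51 (adjusted p = 0.0403) and -0.65 (adjusted p = 0.0470). Epha2, an ephrin receptor, fell after CORT by -1.14 (adjusted p = 0.00542), and Lif, a cytokine, by -1.45 (adjusted p = 0.0105). The usual transcriptional readouts Spry2 (-0.23 after stress, 0.07 after CORT) and Etv5 (0.38 and -0.33) did not pass (adjusted p between 0.520 and 0.864).

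Among 20 other genes of the dual-specificity phosphatase superfamily, 12 were tested after stress and 0 passed, where 1.89% of all genes were called. After CORT 13 were tested, of which 1 rose and 1 fell, where 3.64% of all genes were called higher and 4.50% lower. The 1 that fell was Dusp9, a further cytoplasmic phosphatase that prefers ERK and a close relative of Dusp6 and Dusp7. It was 1.54, 2.68 and 2.85 CPM in vehicle libraries 3, 5 and 6 and 0.687, 0.558 and 0.550 CPM in CORT libraries 2, 4 and 5. The log2 fold change was -1.97 (SE 0.41, adjusted p = 0.0200). The level in CORT library 5 stood near the 0.413 CPM that a 0 allows in that library. Ssh2, which encodes a phosphatase of cofilin, rose by 0.39 on the log2 scale (adjusted p = 0.0354). Of 7 tested phosphatases outside the superfamily that act on MAP kinases, 0 passed after stress, after CORT or between vehicle and Ctrl. The medians were -0.06, -0.08 and -0.04. Over all genes, 1.89%, 8.13% and 0.799% were called in these comparisons.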

How the data were processed

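RNA was sequenced from 12 libraries of sorted ISCs. Per the labels, the submitters' processing notes name HISAT2 2.2.1, StringTie 2.2.1 and mm10, while the methods of the study name other versions, featureCounts and DESeq2. The table deposited by the authors holds estimated counts per gene (47729 genes), rounded here to whole numbers, with about 75 covered bases per count in single-transcript genes. The authors also deposited FPKM, used for levels between genes and for alternatives, TPM, not used here, and coverage, a signal from which the unit of the counts was found. No columns were left without a sample. Overlapping genes can share counts.

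The test was edgeR 4.0.16 (R 4.3.3, quasi-likelihood, TMM, filterByExpr), fitted per comparison to its 6 libraries and to all 12 for the interaction, with Benjamini-Hochberg adjustment and calls at an adjusted p of 0.05. SE was the absolute log2 fold change divided by the square root of F. CPM used TMM factors over the 12 libraries. The fits were tested on simulated data. The methods of the study name at least 3 independent biological samples per group. The labels do not say which mice made up each library, and p-values measure the spread between libraries. Alternatives used DESeq2 1.42.0, other filters, limma 3.58.1 on log2(FPKM + 1) or log2(FPKM + 0.1), all 12 libraries, each library left out, and, chosen after seeing the data, thinned counts. Members and lists were chosen with earlier results of these data known. Every r over the 12 libraries describes libraries that share their groups, and none was tested. All members, list genes past the threshold (at most 6 per list and comparison), Fos, Egr1, Fkbp5, Tsc22d3, Spry2, Etv5 and the 3 genes most correlated with each tested member are named, except where a result is not reported here.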

Additional observations from a re-analysis of the deposited data

How the results depend on the processing

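No paired analysis was possible because the groups compared share fewer than 2 replicate numbers. Of the members, Dusp4 after CORT passed in all 15 alternatives. The count of members past the threshold after stress (0) was 1 with DESeq2 and 1 with all 12 libraries in 1 fit, and ran from 0 to 1 when each library was left out. After CORT the count (3) was 1 with log2(FPKM + 1) in limma without a filter, and ran from 1 to 2 with 1 library left out (1 without vehicle library 5 or CORT library 2). For vehicle against Ctrl the count (1) was 0 with at least 10 counts in every library, which removed Dusp1 from the test, 0 with log2(FPKM + 1), 0 with log2(FPKM + 0.1) and 0 with log2(FPKM + 1) without a filter, and ran from 0 to 1 with 1 library left out. For the difference between the responses the count (0) was 1 with DESeq2. The cause of the other changes was not tested.

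Of the alternative values for members, 16 had the other sign, all for log2 fold changes that did not pass in the reported test. With 1 library left out, the log2 fold change after stress ran from -0.44 to 0.088 for Dusp5 (-0.418 without Ctrl library 2). For Dusp8 it ran from -0.23 to 0.294 (-0.087 without Ctrl library 3, 0.192 without Ctrl library 1). For Dusp16 the log2 fold change after stress ran from -0.099 to 0.10 (0.027 without stress library 4+5+6). After CORT that of Dusp8 ran from -0.433 to 0.45, and in vehicle against Ctrl from -0.40 to 0.483. The difference between the responses ran from -0.012 to 0.322 for Dusp6 (-0.0096 without Ctrl library 3, -0.010 without CORT library 4), from -0.274 to 0.10 for Dusp7 and from -0.39 to 0.495 for Dusp8 (-0.091 without stress library 1+2). With log2(FPKM + 1) it was 0.028 for Dusp7 with and without a filter, and without a filter Dusp10 after CORT was at -0.054.

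Over all genes, the count of calls after stress (260) was 557 with DESeq2, 46 without a filter, 510 with all 12 libraries, 88, 79 and 27 in the FPKM fits, and 56 to 849 with 1 library left out (849 without stress library 3). After CORT (1192) it was 561 with FPKM without a filter and 503 to 1003 with 1 library left out. For vehicle against Ctrl (109) it was 299 with DESeq2, 33, 25 and 0 in the FPKM fits and 20 to 169 with 1 library left out. For the difference between the responses (56) it was 393 with DESeq2, 25, 22 and 17 in the FPKM fits and 12 to 241 with 1 library left out. Counts were at or near the 12 that a 0 allows, or below, for Dusp2 in all groups and for Dusp1 in vehicle libraries 3 and 5. The same held for Dusp10 in Ctrl and in stress libraries 3 and 4+5+6.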
